A study of Mus musculus with 11 samples.

Results

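Splicing and transcript levels were compared between Neuro-2A (N2A) cells depleted of Fubp1 and N2A cells that received a non-targeting control. N2A is a mouse neuroblastoma line that grows as an adherent culture. The comparison used 5 of the 11 libraries of the series, chosen by their labels: 2 libraries of cells transfected with a pool of small interfering RNAs (siRNAs) against Fubp1, and 3 libraries of cells transfected with a non-targeting siRNA pool (siNT). The labels give no other modification of the cells, which were transfected with the same lipid reagent and harvested 48 h later. The series text states that the groups are biological duplicates or triplicates, without saying what separated the cultures, so p-values measure the spread between these libraries. An siRNA pool lowers a transcript and does not delete the gene, and the protein was not measured. The other 6 libraries, from knockdowns of Khsrp, of Khsrp and Fubp1 together, and of Rbm38 (2 each), entered the splicing fit so that the spread between libraries could be estimated from all 11.

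FUBP1, far upstream element binding protein 1, is a nuclear protein with repeated KH domains that bind single-stranded DNA and RNA. It was first described as a factor that binds melted DNA upstream of the MYC gene and stimulates MYC transcription through TFIIH, and it also binds pre-mRNA and takes part in the recognition of 3′ splice sites. Its relatives are KHSRP and FUBP3, and the human gene is inactivated by mutation in a share of oligodendrogliomas.

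The measure of splicing was percent spliced in (PSI): for an exon or intron, the share of reads that hold it, and for a splice site, the share that joins there. The median number of reads per tested event was 195 and 168 in Fubp1 knockdown libraries 1 and 2, against 171, 221 and 141 in siNT libraries 1, 2 and 3. The titles number the libraries, and both knockdown libraries and siNT libraries 1 and 2 fall within numbers 1 to 4, while siNT library 3 is number 27. Transcript levels came as 1 RPKM value per group (reads scaled by transcript length and library size) in the authors' deposited table, so a gene's level carries no error here and its difference rests on the authors' own test. Markers of neuroblastoma cells were present, with a summed level of 1527 RPKM after knockdown and 1709 RPKM in siNT over 21 genes in the authors' deposited table. Marker lists of 5 other cell types summed to between 0.39 and 4.70 RPKM after knockdown and between 0.34 and 4.19 RPKM in siNT in the same authors' deposited table. Sox10, Olig2, Cd3e and Epcam were listed at 0 in both groups there.

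The Fubp1 transcript was depleted, and what remained held more intron sequence. Fubp1 (ENSMUSG00000028034.15) stood at 27.89 RPKM after knockdown and 180.07 RPKM in siNT in the authors' deposited table, a log2 fold change of -2.60 (FDR 8.76e-46). The same authors' deposited table lists 19.82 RPKM in the double knockdown with Khsrp and 189.89 RPKM in the knockdown of Khsrp alone. A Fubp1 intron of 1953 nt (GRCm38 chr3:152226218-152228170) had a PSI of 51.05% and 42.09% in the knockdown libraries, against 6.5%, 3.34% and 2.73% in siNT libraries 1, 2 and 3. Both knockdown libraries were far above the 3 controls, and the difference of 42.38 points passed the test (log2 odds difference 4.43 ± 0.437 SE, limma adjusted p 0.000691). This intron had 135.8 and 90.8 corrected reads in the knockdown libraries, against 374.8, 544.2 and 315.8 in siNT. A neighbouring intron of 2714 nt (GRCm38 chr3:152223366-152226079) was retained at 15.65% and 13.35% after knockdown and at 2.39%, 1.49% and 3.64% in siNT, a difference of 11.99 points (limma adjusted p 0.00274).

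The other 3 tested introns of Fubp1 had higher values in both knockdown libraries than in any siNT library but did not pass the threshold. Groups without overlap, in either direction, were found in 25.3% of all introns tested. The intron of 3631 nt stood at 10.34% and 6.21% after knockdown and at 0.7%, 0.94% and 0.88% in siNT (limma adjusted p 0.0618). The introns of 372 nt and 386 nt differed by 4.98 and 4.18 points, with adjusted p of 0.266 and 0.874. Other Fubp1 events did not pass either. A 63 nt cassette exon was included at 2.7% and 1.21% after knockdown and at 2.24%, 2.04% and 1.79% in siNT, with overlapping groups (limma adjusted p 0.999). An alternative 3′ and an alternative 5′ splice site differed by 4.48 and -8.43 points (limma adjusted p 0.838 and 0.652). Without knockdown library 1 the adjusted p of the 2714 nt intron was 0.0589, and that of the 1953 nt intron lay between 0.00250 and 0.0169 whichever of the 5 libraries was left out. In the double knockdown, the 1953 nt intron stood at 35.21% and 27.47%.

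**Figure D1:**
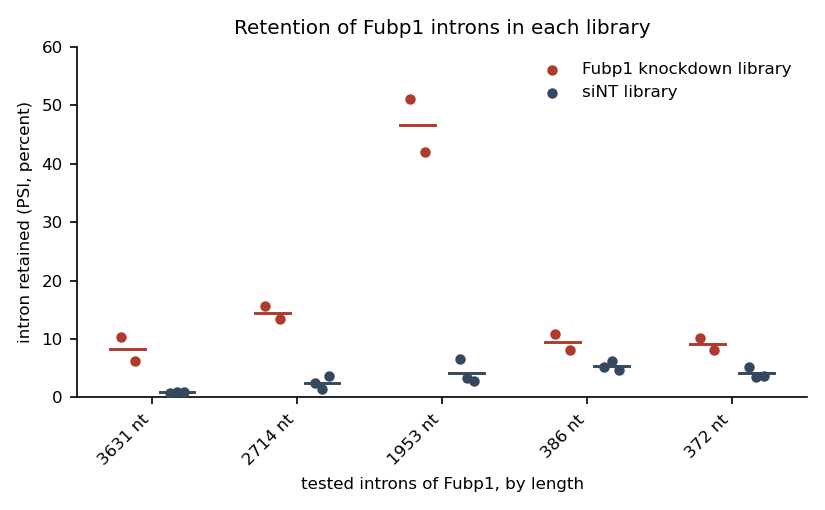
PSI (percent of reads that keep the intron) of the 5 tested introns of Fubp1, ordered by length on the x axis, with 1 point per library and a bar at the group mean. The 1953 nt intron stands at 51.05% and 42.09% in the knockdown libraries and at 6.5% or less in the siNT libraries.

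Fubp1 knockdown lowered the inclusion of many cassette exons and raised that of fewer. Of 60137 events tested in 9318 genes, 345 were lower and 110 higher after knockdown, with 0.05 as the limit for the adjusted p and 10 points as the smallest difference called. These are 0.574% and 0.183% of all events tested, 0.757% together, and they lie in 359 genes. Cassette exons of 28 nt or more made up most of them, with 294 lower and 69 higher of 20841 tested. Among exons of up to 27 nt, called microexons, 24 were lower and 12 higher of 478, a called share of 7.53% against 1.74% of longer cassette exons. These classes differ in inclusion, with a median siNT PSI of 43.7% over tested microexons and 95.9% over longer cassette exons. Of longer cassette exons included at 20% to 50% in siNT, 4.93% were lower and 2.52% higher. The shares of microexons were 5.02% and 2.51%. Retained introns gave 18 lower and 18 higher of 26596, alternative 3′ splice sites 4 and 6 of 7031, and alternative 5′ splice sites 5 and 5 of 5191. The PSI ranges of the groups did not overlap in the 455 called events, which the call nearly fixes, and in 27.9% of all events tested. The median difference was -0.328 points over all events tested, -17.5 points over those called lower and 17 points over those called higher, the last 2 being fixed in sign by the call.

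These counts depended on the weights of the test, which are set by read depth and PSI. Without these weights, and with the spread modelled along mean log odds, the fit called 23 events lower and 11 higher. With the weights kept and the spread modelled in that way, 400 were lower and 138 higher. Of the tested events, 47915 were also in the authors' deposited table, and among those it marks, 1850 were lower and 632 higher. The direction was taken from the PSI difference found here, and the labels used here do not name the criterion of the mark. With siNT libraries 1 and 2 alone as controls, which share their set of library numbers with both knockdown libraries, 263 events were lower and 82 higher. With a term for the library sets, 159 were lower and 40 higher, of which 148 and 38 were among those of the full comparison. Lower and higher counts were 166 and 42 without knockdown library 1, 130 and 41 without knockdown library 2, 209 and 61 without siNT library 1, and 157 and 46 without siNT library 2.

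**Figure D2:**
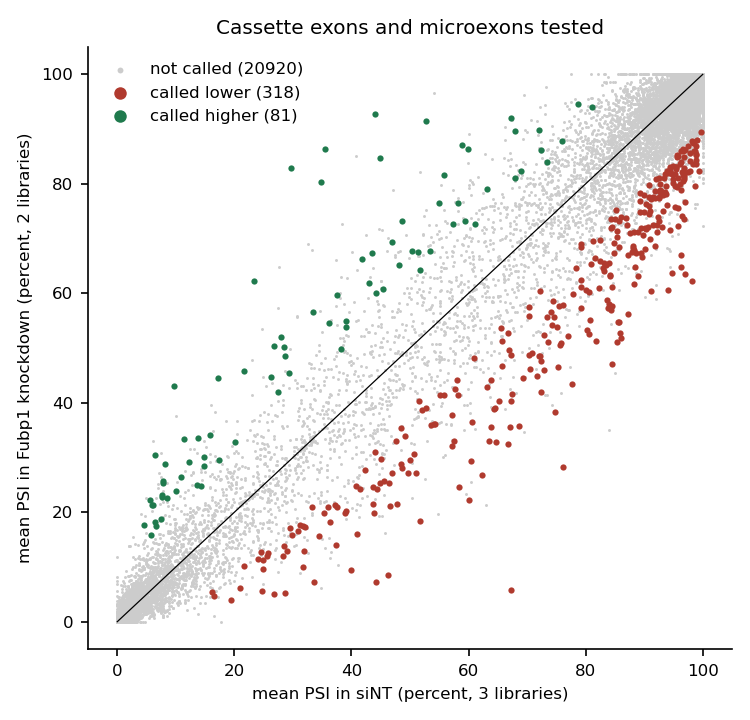
Mean PSI of each tested cassette exon and microexon in the Fubp1 knockdown (y axis, percent, 2 libraries) against its mean in siNT (x axis, percent, 3 libraries), with called exons coloured and the diagonal marking equal values. Called exons below the diagonal outnumber those above it, and those near the right edge lie below it.

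The direction of the calls varied with the inclusion of an exon in siNT, which the 10-point minimum fixes in part. Of cassette exons included at under 20% in siNT, 2 were lower and 24 higher of 3946, and those under 10% cannot be called lower. Between 20% and 50% the numbers were 47 lower and 24 higher of 953, and between 50% and 80% they were 77 lower and 20 higher of 1192. Between 80% and 95%, 111 were lower and 1 was higher of 3523, and above 95%, 57 were lower of 11227. Exons within 10 points of full inclusion cannot be called higher, which covers all above 95% and some of those between 80% and 95%. Cassette exons called lower had a median PSI of 63.6% after knockdown and 84.5% in siNT, and those called higher had a median of 56.6% after knockdown and 35.5% in siNT.

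Lengths that keep the reading frame were more frequent among called exons than among all tested. A length that is a multiple of 3, which leaves the frame intact when the exon is skipped, was found in 69.6% of the cassette exons called higher and 56.1% of those called lower, against 39.5% of all tested and 42.2% of those with a siNT PSI from 20% to 95%. Among microexons the shares were 100% of the 12 called higher and 95.8% of the 24 called lower, against 77.4% of all 478 and 85.6% of those with a siNT PSI from 20% to 95%. Median exon lengths were 113.5 nt in cassette exons called lower, 96 nt in those called higher and 113 nt in all tested. The intron upstream had a median of 2858 nt for exons called lower and 1566 nt for those called higher, against 2304 nt over all tested. The intron downstream had medians of 3034 and 2855 nt, against 2306 nt over all tested. The quartiles of the upstream intron, 1424 to 6402 nt for exons called lower and 761 to 6474 nt for all tested, overlap widely, and no test was made of these features.

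Large falls among cassette exons with at least 20 reads in each library were in Dock9, Slc4a7, Asph, Fam188a, Sbf2, Rttn and Cep170. Short exons are printed whole to show what the transcript loses or gains. The lines give exons read from GENCODE vM21 transcripts, 5′ to 3′, with the exon in capitals and 15 nt of each neighbouring exon in lower case. The first pair, on the minus strand of GRCm38, were lower after knockdown, and the last, on the plus strand, was higher.
Asph exon of 45 nt: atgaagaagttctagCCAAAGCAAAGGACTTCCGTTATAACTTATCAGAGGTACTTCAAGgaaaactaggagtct
Sbf2 exon of 75 nt: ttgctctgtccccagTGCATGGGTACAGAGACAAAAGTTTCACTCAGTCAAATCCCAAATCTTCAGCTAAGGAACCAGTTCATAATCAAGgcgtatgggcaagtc
Syne2 exon of 69 nt: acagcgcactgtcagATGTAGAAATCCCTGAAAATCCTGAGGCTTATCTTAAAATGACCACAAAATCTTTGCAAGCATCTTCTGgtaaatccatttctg

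Dock9 encodes an exchange factor for the GTPase Cdc42, and its 36 nt exon was nearly lost. Its PSI was 3.45% and 8.22% in the knockdown libraries, against 69.99%, 59.51% and 72.27% in siNT, a difference of -61.42 points (limma adjusted p 0.0119) that rests on 23 to 37 reads per library. The 75 nt exon of Sbf2, a catalytically inactive member of the myotubularin family, stood at 9.27% and 5.27% after knockdown and at 43.93%, 40.03% and 48.55% in siNT. With 488 to 1639 reads per library it gave a log2 odds difference of -3.29 ± 0.236 SE (limma adjusted p 7.93e-05). Asph encodes the aspartate beta-hydroxylase of the endoplasmic reticulum. Its 45 nt exon was included at 24.08% and 20.38% after knockdown, against 62.62%, 59.7% and 57.85% in siNT (limma adjusted p 0.0016). The means were 22.2% ± 2.62 (SD, n = 2) after knockdown and 60.1% ± 2.40 (SD, n = 3) in siNT. In the double knockdown the Sbf2 exon stood at 2.9% and 2.05% and the Asph exon at 5.05% and 5.31%.

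Exons of a centrosomal and a deubiquitinase gene fell to a similar extent. A 150 nt exon of Cep170, which encodes a centrosomal protein, stood at 28.76% and 24.7% after knockdown, against 59.06%, 68% and 59.77% in siNT (-35.55 points, limma adjusted p 0.000311). A 171 nt exon of Fam188a, a deubiquitinase gene also called Mindy3, was included at 47.81% and 46.25% after knockdown and at 82.71%, 84.15% and 86.79% in siNT (-37.52 points, limma adjusted p 7.93e-05). In both exons the groups were far apart relative to the spread within them. Further exons of these genes, outside the naming rule, were also called lower. They were of 294 nt in Cep170 (-26.88 points) and of 52, 115, 80 and 74 nt in Fam188a (-30.56 to -10.16 points).

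Exons whose length is not a multiple of 3 fell as well. The 175 nt exon of Slc4a7, a sodium bicarbonate cotransporter, stood at 23.16% and 33.33% after knockdown, against 66.01%, 76.27% and 86.18% in siNT (-47.91 points, limma adjusted p 0.00467). By the authors' deposited table the Slc4a7 transcript was also lower, at 9 RPKM after knockdown and 16.12 RPKM in siNT (-1.01 on the log2 scale, FDR 4.80e-09). The 166 nt exon of Rttn, which encodes the centriole protein rotatin, was included at 71.72% and 52.65% after knockdown and at 96.78%, 100% and 97.92% in siNT (-36.05 points, limma adjusted p 0.00986). Rttn stood at 1.98 RPKM after knockdown and 5.66 RPKM in siNT in the authors' deposited table (-1.57 on the log2 scale, FDR 1.10e-21). Of the named exons that fell, the calls of Asph, Sbf2, Cep170 and Fam188a held whichever of the 5 libraries was left out. The adjusted p of Dock9 was 0.134 without knockdown library 1 and 0.0925 without library 2, that of Slc4a7 was 0.0955 without knockdown library 1, and that of Rttn was 0.0955 without knockdown library 2.

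The matched positions of these exons, all on GRCm38, are coding in Slc4a7 (chr14:14762348-14762522), Asph (chr4:9637659-9637703), Sbf2 (chr7:110341290-110341364) and Cep170 (chr1:176761351-176761500). The Dock9 exon matched chr14:121559925-121559960, which lies downstream of the coding sequence in the annotated transcript that holds it.

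Large rises by the same criterion were in Ppp1r9a, Ntrk3, Atg4a, Ccdc136, Syne2, Shank2, Dnm2 and Kif13a. A 199 nt exon of Ppp1r9a (GRCm38 chr6:5154009-5154207, coding), which encodes the actin-binding protein neurabin, was included at 80.85% and 85.04% after knockdown, against 21.66%, 34.9% and 32.57% in siNT. The difference of 53.24 points passed the test (log2 odds difference 3.52 ± 0.354 SE, limma adjusted p 0.000757). This exon did not rise alone, as Ppp1r9a exons of 244, 88 and 84 nt were also called higher, by 48.63, 50.9 and 45.66 points. These further exons lie outside the naming rule and outside the counts of named events given below. Ntrk3 encodes the receptor tyrosine kinase for neurotrophin-3. Its 135 nt coding exon (GRCm38 chr7:78304292-78304426) had a PSI of 83.71% and 85.58% after knockdown and of 49.22%, 40.66% and 44.68% in siNT (39.79 points, limma adjusted p 0.000199). A 105 nt coding exon of the kinesin gene Kif13a stood at 65.6% and 66.79% after knockdown, against 44.74%, 43.7% and 36.94% in siNT (24.4 points, limma adjusted p 0.00183). The 69 nt exon of Syne2 (GRCm38 chr12:76100028-76100096, coding), which encodes nesprin-2 of the nuclear envelope, stood at 86.16% and 86.46% after knockdown and at 57.65%, 52.64% and 69.29% in siNT (26.45 points, limma adjusted p 0.00194).

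The remaining named exons that rose had higher adjusted p. Shank2 encodes a scaffold of excitatory synapses, and its 136 nt exon had a PSI of 91.07% and 93.15% after knockdown, against 80.59%, 67.15% and 54.03% in siNT (24.85 points, limma adjusted p 0.0459). A 139 nt exon of Dnm2, the gene for the membrane-scission GTPase dynamin 2, stood at 67.72% and 78.68% after knockdown and at 50.97%, 45.03% and 50.07% in siNT (24.51 points, limma adjusted p 0.0191). Another 139 nt exon of Dnm2, named after its values were seen, fell, with 36.08% and 28.14% after knockdown against 58.16%, 58.46% and 54.9% in siNT (-25.06 points, limma adjusted p 0.0433), and lost its call without each of the 5 libraries (0.0707 to 0.281). The Dnm2 exons moved by similar amounts in opposite directions, so their calls may not be independent. The 86 nt exon of Atg4a, a protease of the autophagy pathway, was included at 39.39% and 46.67% after knockdown, against 11.32%, 8.75% and 8.91% in siNT (33.37 points, limma adjusted p 0.0126). A 507 nt exon of Ccdc136, which encodes a coiled-coil protein, stood at 84.82% and 89.38% after knockdown and at 68.77%, 58.62% and 49.48% in siNT (28.14 points, limma adjusted p 0.0314). The calls of the 199 nt exon of Ppp1r9a and of the named exons of Ntrk3, Kif13a and Syne2 held without any 1 library. Those of Shank2 (adjusted p 0.0860 to 0.226) and Ccdc136 (0.0777 to 0.186) were lost without each library other than siNT library 1. Those of the Dnm2 exon that rose (0.171 and 0.129) and Atg4a (0.182 and 0.0767) were lost without knockdown library 2 and without siNT library 2.

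**Figure D3:**
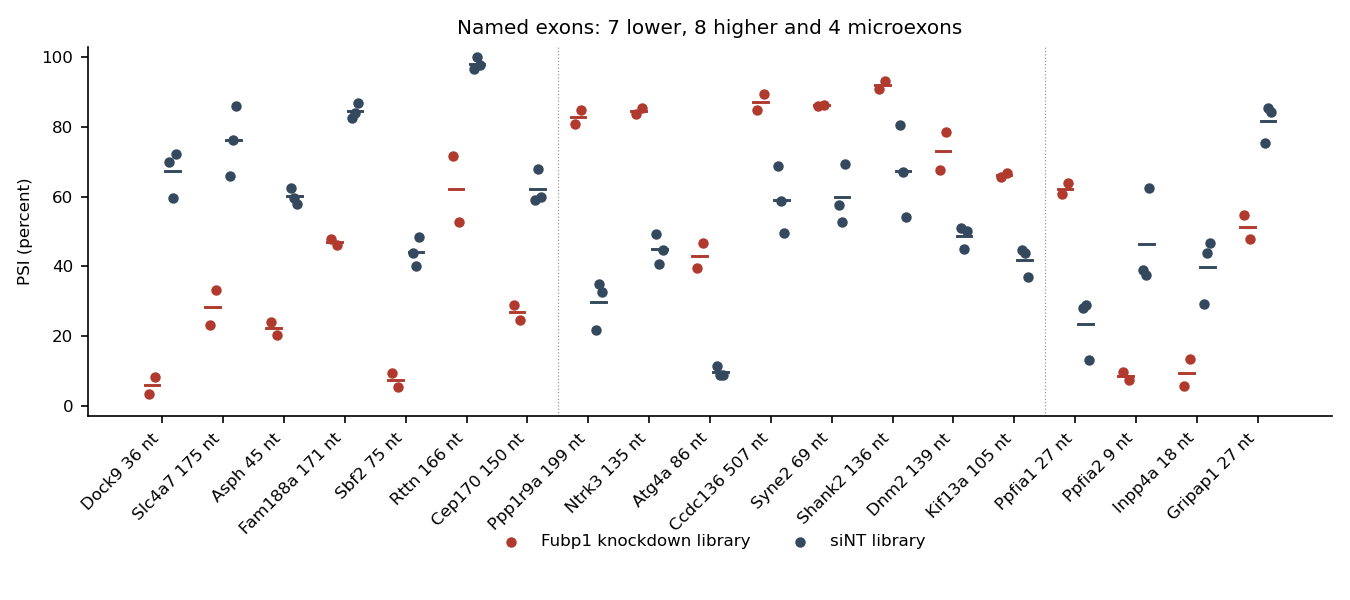
PSI (percent) of the named exons in each library, with 1 point per library, a bar at the group mean, and the exon length after the gene name. From left to right stand 7 exons lower after knockdown, 8 higher, and 4 microexons. They were chosen for large called differences, which fixes that the knockdown and siNT points do not overlap.

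Microexons, which are typical of neuronal transcripts and usually alter a protein by a few residues, moved in both directions. Of the 4 with the largest differences, the sequences of the Inpp4a and Gripap1 exons are shown with the exon in capitals, both on the plus strand and lower after knockdown.
Inpp4a exon of 18 nt: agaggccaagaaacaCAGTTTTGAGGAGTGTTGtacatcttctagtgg
Gripap1 exon of 27 nt: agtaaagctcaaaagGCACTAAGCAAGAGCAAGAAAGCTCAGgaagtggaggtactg

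The Gripap1 exon (GRCm38 chrX:7794260-7794286, coding) belongs to a gene for a protein of recycling endosomes. It was included at 54.87% and 47.83% after knockdown, against 75.39%, 85.47% and 84.24% in siNT (-30.35 points, limma adjusted p 0.00296). Inpp4a encodes a phosphoinositide 4-phosphatase, and its exon (GRCm38 chr1:37374272-37374289, coding) stood at 5.49% and 13.3% after knockdown and at 29.09%, 43.77% and 46.67% in siNT (-30.45 points, limma adjusted p 0.0494). Ppfia1 and Ppfia2 encode liprin-alpha proteins, scaffolds of the presynaptic active zone and of adhesions. The 27 nt exon of Ppfia1 had a PSI of 60.74% and 63.8% after knockdown, against 28.1%, 28.9% and 12.95% in siNT (38.95 points, limma adjusted p 0.00244). Other Ppfia1 exons, named after their values were seen, moved both ways. Its 63 nt exon rose, with 56.66% and 56.53% after knockdown against 33.65%, 35.75% and 30.72% in siNT (limma adjusted p 0.00163), and its 30 nt exon fell, with 16.31% and 9.5% after knockdown against 34.35%, 30.12% and 31.34% in siNT (limma adjusted p 0.00387). The 9 nt exon of Ppfia2 had a PSI of 9.73% and 7.34% after knockdown, against 38.86%, 37.43% and 62.6% in siNT (-37.76 points, limma adjusted p 0.0400). The calls of Gripap1 and of the 3 Ppfia1 exons held without any 1 library, but that of Gripap1 was lost with the term for library sets (0.0837). That of Inpp4a was lost without each of the 5 (adjusted p 0.0515 to 0.310), and that of Ppfia2 without each library other than siNT library 3 (0.0529 to 0.253).

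The other called microexons ranged in length from 3 to 27 nt. Those of 3 nt were both lower, in Mon2 (18.19% and 13.88% after knockdown, against 46.48%, 38.96% and 37.35% in siNT, limma adjusted p 0.0110) and in Cyth1 (60.23% and 57.41% after knockdown, against 80.11%, 86.03% and 84.93% in siNT, limma adjusted p 0.0183). The smallest adjusted p belonged to a 9 nt exon of Psap, the precursor of the lysosomal saposins, which stood at 61.17% and 60.49% after knockdown, against 44.92%, 44.89% and 46.35% in siNT (15.44 points, limma adjusted p 3.04e-06). A 12 nt exon of Vps29, a retromer subunit, stood at 67.08% and 67.88% after knockdown and at 50.25%, 51.11% and 52.57% in siNT (limma adjusted p 0.000103). A 24 nt exon of Picalm, a clathrin adaptor, fell, with 23.14% and 18.94% after knockdown against 39.75%, 36.82% and 36.26% in siNT (limma adjusted p 0.000757). Mon2, Cyth1, Psap, Vps29 and Picalm were named after their values were seen. The calls of Psap, Vps29 and Picalm held without any 1 library, that of Mon2 was lost without either knockdown library (0.0794 and 0.126), and that of Cyth1 without each of the 5 (0.0543 to 0.130).

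Intron retention changed in few introns, and in either direction. An intron of 1449 nt in 2210403K04Rik, also named Mir22hg, the host transcript of the microRNA miR-22 (GRCm38 chr11:75463858-75465306), was retained at 53.02% and 58.24% after knockdown, against 86.58%, 90.86% and 95.51% in siNT (-35.35 points, limma adjusted p 0.0206). A 4371 nt intron of Vamp4, a SNARE of the trans-Golgi network (GRCm38 chr1:162592678-162597048), stood at 10.22% and 9.45% after knockdown and at 36.84%, 45.28% and 35.38% in siNT (-29.33 points, limma adjusted p 0.0156). In the other direction, a 4129 nt intron of the long non-coding RNA 9130206I24Rik, also named Foxd2os, had a PSI of 53.19% and 54.17% after knockdown, against 11.11%, 21.95% and 6.12% in siNT (40.62 points, limma adjusted p 0.0402), from 25 to 37 reads per library. Leaving out any of the 5 libraries raised the adjusted p of the Mir22hg and Foxd2os introns above the threshold (0.0516 to 0.176 and 0.0984 to 0.157). The Vamp4 intron lost its call without knockdown library 1 (0.146), knockdown library 2 (0.102) or siNT library 2 (0.0780). Over all tested introns the median difference was -0.876 points for those of up to 200 nt, -0.523 points from 200 to 1000 nt and -0.112 points above 1000 nt.

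Alternative splice sites gave 10 calls of each kind. At a 3′ splice site of Acsl4, an acyl-CoA synthetase with a preference for arachidonate, usage was 68.14% and 64.32% after knockdown, against 36.89%, 39.63% and 35.28% in siNT (28.96 points, limma adjusted p 0.00603), and the Acsl4 transcript stood at 26.07 RPKM after knockdown and 78.57 RPKM in siNT in the authors' deposited table (-1.63 on the log2 scale, FDR 2.60e-32). A 3′ splice site of Pdlim5, a PDZ and LIM domain protein bound to actin filaments, was used at 52.61% and 56.45% after knockdown and at 82.34%, 86.08% and 80.72% in siNT (-28.52 points, limma adjusted p 0.00105). At Dhdds, a subunit of the enzyme that makes dolichol precursors, the values were 80.27% and 80.92% after knockdown, against 55.62%, 50.27% and 59.73% in siNT (25.39 points, limma adjusted p 0.00400). Among 5′ splice sites, that of Dennd2a, an activator of Rab GTPases, stood at 32.41% and 28.64% after knockdown and at 57.8%, 56.65% and 71.97% in siNT (-31.62 points, limma adjusted p 0.0370). Usage at Rbbp5, a core subunit of histone H3 lysine methyltransferase complexes, was 10.78% and 12.49% after knockdown, against 27.56%, 30.35% and 35.85% in siNT (-19.62 points, limma adjusted p 0.0203). That of Mynn, a zinc finger gene, was 87.72% and 84.24% after knockdown and 69.55%, 65.61% and 66.67% in siNT (18.7 points, limma adjusted p 0.0262).

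Of these sites, Pdlim5 kept its call without any 1 library. Acsl4 (adjusted p 0.107 and 0.0595) and Dhdds (0.0556 and 0.0663) lost it without knockdown library 1 and library 2. Rbbp5 lost it without either knockdown library or siNT library 2 (0.168, 0.139 and 0.0780), and Dennd2a (0.0745 to 0.206) and Mynn (0.0505 to 0.241) lost it without any of the 5. Without read weights, 10 of the 39 called events that the naming rule picked kept an adjusted p under 0.05, among them the Fubp1 intron of 1953 nt and the exons of Dock9, Asph, Fam188a, Sbf2, Cep170, Ppp1r9a, Ntrk3 and Atg4a. With the term for library sets 19 kept it. Those that lost it were Gripap1, Inpp4a, Rttn, Atg4a, Ccdc136, Shank2, the Dnm2 exon that rose, the introns of Mir22hg, Foxd2os, Vamp4 and Elavl4, the 5′ splice sites of Dennd2a, Rbbp5 and Mynn, the exons of Prpf39, Tra2a and Ptbp2, and the sites of Srsf10 (adjusted p 0.0520 to 0.293). All 39 kept the sign of their difference of mean PSI whichever of the 5 libraries was left out. Settings that alter only the fit or the filters leave this difference unchanged, so they cannot reverse it. At a minimum of 20 reads, 35 of the 39 were tested.

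Genes that encode splicing factors held 5 lower and 3 higher events of 668 tested, a share of 1.2% beside 0.757% of all events. These counts take linked splice sites of Srsf10 separately. The largest difference was in 2610101N10Rik, also named U2surp, a protein bound to the U2 snRNP. Its 132 nt coding exon (GRCm38 chr9:95500688-95500819) was included at 48.89% and 43.41% after knockdown, against 70.03%, 67.5% and 74.02% in siNT, from 2093 to 3108 reads per library (-24.37 points, limma adjusted p 0.000521). In Prpf39, a U1 snRNP-associated factor, a 168 nt exon stood at 87.39% and 81.31% after knockdown and at 97.77%, 98.97% and 100% in siNT (limma adjusted p 0.0207). Its 347 nt exon stood at 76.34% and 76.15% after knockdown, against 90.92%, 87.31% and 92.61% in siNT (limma adjusted p 0.00728). A 301 nt exon of Tra2a, an activator of exon inclusion, had a PSI of 24.8% and 20.51% after knockdown and of 11.15%, 9.3% and 5.29% in siNT (14.08 points, limma adjusted p 0.0203). An intron of 3038 nt in Elavl4, which encodes a neuronal RNA-binding protein, was retained at 28% and 19.88% after knockdown, against 7.68%, 5.7% and 6.22% in siNT (17.41 points, limma adjusted p 0.00835). In Srsf10 the use of neighbouring 3′ splice sites differed by -11.27 and 11.24 points (limma adjusted p 0.0497 and 0.0358). These sites compete for the same reads, so a rise at one lowers the other, and they are not separate changes.

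Ptbp2, the neuronal relative of the splicing repressor PTBP1, has a 34 nt exon whose skipping shifts the reading frame. It is shown because the gene's own level was also lower, with the exon in capitals (GRCm38 chr3:119724612-119724645, minus strand, coding).
Ptbp2 exon of 34 nt: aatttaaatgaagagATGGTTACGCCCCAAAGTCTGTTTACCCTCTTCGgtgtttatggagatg

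The exon stood at 71.08% and 76.58% after knockdown, against 87.11%, 90.5% and 83.3% in siNT (-13.14 points, limma adjusted p 0.0349), and at 26.47% and 18.21% in the double knockdown. Ptbp2 had 73.66 RPKM after knockdown and 104.17 RPKM in siNT in the authors' deposited table (-0.77 on the log2 scale, FDR 1.14e-07). Of the events in splicing factor genes, that of U2surp kept its call without any 1 library. Ptbp2 lost it without each library other than siNT library 3 (adjusted p 0.0831 to 0.327), and Tra2a without each other than siNT library 1 (0.0548 to 0.151). Elavl4 lost it without knockdown library 1 (0.0877) and without siNT library 2 (0.0631). The 168 nt exon of Prpf39 lost it without knockdown library 2, siNT library 1 or siNT library 2 (0.0781 to 0.124), and the 347 nt exon without either knockdown library (0.0554 and 0.0692). Of the Srsf10 sites, the one that fell lost its call without each of the 5 (0.0610 to 0.278), and the one that rose without each other than siNT library 3 (0.0939 to 0.206).

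Genes of netrin, slit and ephrin signalling, which steer axons, held 2 lower and 4 higher events of 65 tested, a share of 9.23% beside 0.757% of all events. These events were named after their values were seen. Unc5c, a netrin receptor, gained a 57 nt exon, with 33.64% and 33.06% after knockdown against 10.7%, 9.73% and 13.72% in siNT (limma adjusted p 0.000311). The ligand gene Slit2 gained a 24 nt microexon, with 50.59% and 49.68% after knockdown against 29.03%, 20.71% and 35.78% in siNT (limma adjusted p 0.00603). Srgap3, a GTPase-activating protein that acts below slit receptors, had a 328 nt exon at 85.88% and 89.88% after knockdown, against 76.06%, 78.92% and 72.68% in siNT (limma adjusted p 0.0431). Neogenin, encoded by Neo1, is a receptor of the netrin family, and 3 of its events were called. Its 95 nt exon was included at 82.33% and 83.69% after knockdown, against 96.41%, 95.18% and 94.94% in siNT (limma adjusted p 0.000272). Of its 3′ splice sites, 1 was used more (49.61% and 54.93% after knockdown, against 30.5%, 28.89% and 24.27% in siNT, limma adjusted p 0.00298) and 1 less (43.09% and 43.43% after knockdown, against 56.07%, 61.4% and 52.13% in siNT, limma adjusted p 0.0459). The calls of Unc5c, of the Neo1 exon and of its site used more held without any 1 library. That of Slit2 was lost without either knockdown library (0.0589 and 0.0534), that of Srgap3 without each of the 5 (0.0678 to 0.226), and that of the Neo1 site used less without each other than siNT library 3 (0.117 to 0.259).

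Other list genes with called events were few and were also named after their values were seen. In Tpm1, a tropomyosin, alternative exons of 76 nt moved in opposite directions, with mean PSI of 60.1% after knockdown and 44.2% in siNT for one of them and 36.2% after knockdown and 54.0% in siNT for its neighbour (limma adjusted p 0.00700 and 0.00274). Their values nearly complement each other in each group, so these calls may be a single switch and are not independent. Ccnh, the cyclin of the TFIIH kinase, had lower inclusion of exons of 211 nt and 74 nt, with means of 61.0% and 64.1% after knockdown and 82.3% and 83.1% in siNT (limma adjusted p 0.00205 and 0.00194). Cdk4, a kinase of the G1 phase, has a 234 nt exon that stood at 67.65% and 69.43% after knockdown, against 79.33%, 80.94% and 77.42% in siNT (limma adjusted p 0.00107). The calls of Ccnh and Cdk4 held without any 1 library. The Tpm1 exon that rose lost its call without either knockdown library or siNT library 2 (0.0528 to 0.0713), and its neighbour without knockdown library 1 (0.0541). Without read weights none of the 19 events named after their values were seen passed (adjusted p 0.0730 to 0.370). With the term for library sets Srgap3 (0.414), Cyth1 (0.188), the Neo1 site used less (0.201) and the Dnm2 exon that fell (0.152) did not pass.

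Hosts of called events were themselves called at shares close to those of all hosts. By the authors' deposited table, of 350 such genes 22.9% were higher and 21.4% lower, against 19.0% and 18.6% of 8879 hosts of all tested events. Of 233 hosts of cassette exons called lower, 18.9% were higher and 24.5% lower in the authors' deposited table. The median log2 fold change was 0.02 in the called hosts and -0.02 in all hosts of the authors' deposited table.

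In transcript levels the knockdown was followed by changes in both directions of similar number. The authors' deposited table gives a test for 23378 genes, of which 2811 (12.0%) were higher and 2448 (10.5%) lower after knockdown at an FDR under 0.05, with a median log2 fold change of 0 over all genes tested. Among the 12862 genes with at least 1 RPKM in either group, 18.2% were higher and 17.2% lower in the authors' deposited table. Of 4181 called genes with at least 1 RPKM in both groups, 17 had an RPKM ratio and a log2 fold change of opposite sign in that deposited table by the authors. The gene levels below refer to bulk RNA, in which fewer cells of a kind and less RNA per cell cannot be told apart.

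**Figure D4:**
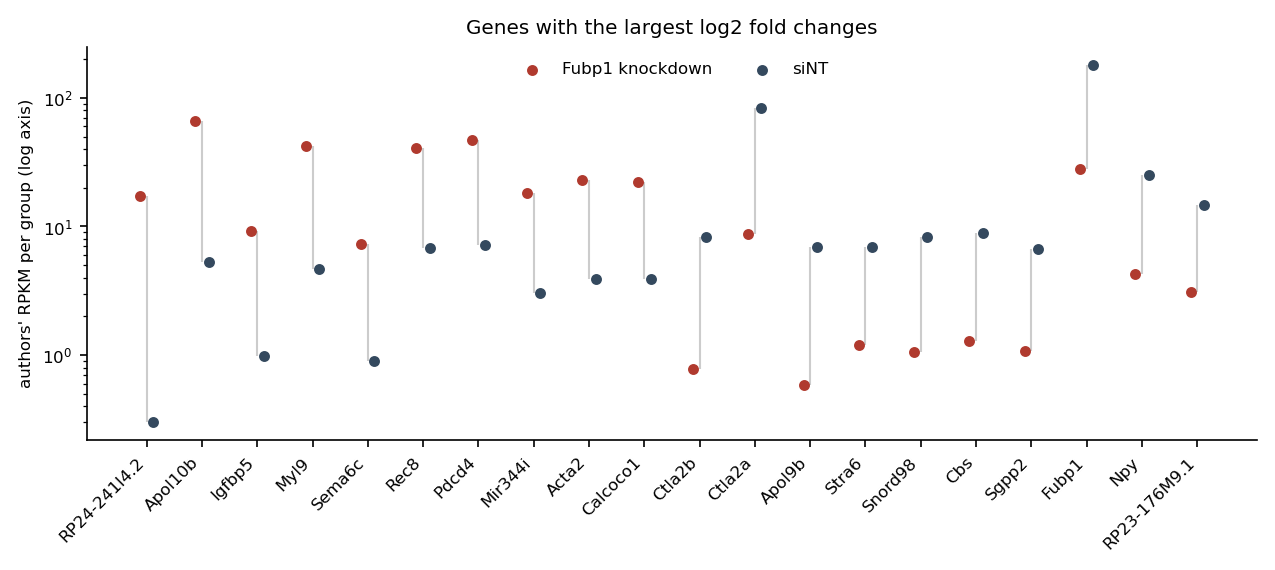
The authors' RPKM (log axis) of the 10 genes with the largest positive (left) and the 10 with the largest negative (right) log2 fold change, with the Fubp1 knockdown value left of the siNT value for each gene. The largest rise among them in a named protein-coding gene is that of Apol10b, at 66.04 RPKM after knockdown and 5.26 RPKM in siNT.

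Among transcripts of at least 5 RPKM in either group, those that rose furthest were of varied function. Apol10b, of the apolipoprotein L family, stood at 66.04 RPKM after knockdown and 5.26 RPKM in siNT (log2 fold change 3.64, FDR 2.56e-56) in the authors' deposited table. Igfbp5, which binds insulin-like growth factors, had 9.25 RPKM after knockdown and 0.98 RPKM in siNT (3.30, FDR 5.02e-43), and the semaphorin gene Sema6c 7.35 RPKM after knockdown and 0.90 RPKM in siNT (2.94, FDR 2.51e-22), in the authors' deposited table. Rec8, a meiotic cohesin subunit, had 40.94 RPKM after knockdown and 6.77 RPKM in siNT (2.74), and Pdcd4, an inhibitor of the helicase eIF4A, 47.25 RPKM after knockdown and 7.17 RPKM in siNT (2.66), by the authors' deposited table. The contractile genes Myl9 and Acta2 are described with their group. Calcoco1, an autophagy receptor gene, the microRNA gene Mir344i and the transcript RP24-241I4.2, at 17.33 RPKM after knockdown and 0.30 RPKM in siNT (5.80, FDR 1.90e-68), complete the 10 genes with the largest rise in the authors' deposited table.

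The transcripts that fell furthest were also of varied function. Ctla2a stood at 8.68 RPKM after knockdown and 82.67 RPKM in siNT (-3.24, FDR 9.53e-13), and Ctla2b at 0.78 RPKM after knockdown and 8.35 RPKM in siNT (-3.48), in the authors' deposited table. These cysteine protease inhibitor genes are close copies, so reads of the pair may have been shared between them. Cbs, which makes cystathionine from homocysteine, had 1.30 RPKM after knockdown and 8.84 RPKM in siNT (-2.69, FDR 1.09e-32) in the authors' deposited table. Stra6, a receptor for retinol-binding protein, had 1.19 RPKM after knockdown and 6.96 RPKM in siNT, Sgpp2, a sphingosine-1-phosphate phosphatase, 1.07 RPKM after knockdown and 6.63 RPKM in siNT, and Npy, the neuropeptide Y gene, 4.26 RPKM after knockdown and 24.94 RPKM in siNT, by the authors' deposited table. Apol9b, Snord98, RP23-176M9.1 and Fubp1 itself complete the 10 with the largest fall in the authors' deposited table.

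Where core components of the splicing machinery passed the authors' test, most were lower. No member of the lists of 3′ splice site factors (8 of 27 lower), tri-snRNP proteins (6 of 17), SR proteins (4 of 12) and hnRNP proteins (10 of 28) was called higher in the authors' deposited table. The shares called lower were 29.6%, 35.3%, 33.3% and 35.7%, against 10.5% of all genes and 17.2% of those with at least 1 RPKM, in the authors' deposited table. Their median log2 fold changes were -0.27, -0.32, -0.51 and -0.36, against 0 over all genes, in the authors' deposited table. Puf60, a 3′ splice site factor whose product also binds FUBP1, stood at 59.25 RPKM after knockdown and 83.9 RPKM in siNT (-0.43, FDR 0.00512) in the authors' deposited table. Hnrnpa3, an hnRNP of the A/B type, had 497.37 RPKM after knockdown and 949.4 RPKM in siNT (-1.02, FDR 1.58e-07), and Srsf1, an SR protein, 242.27 RPKM after knockdown and 299.73 RPKM in siNT (-0.51, FDR 0.000440), by the authors' deposited table. Of 20 factors of the 5′ splice site, 3 were lower and 1, Prpf40b, was higher in the authors' deposited table.

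Splicing regulators restricted to some tissues held 6 higher and 8 lower of 29 (20.7% and 27.6%, against 18.2% and 17.2% of genes with at least 1 RPKM) in the authors' deposited table. Nova2 and Nova1, neuronal regulators that bind YCAY motifs, stood at 14.57 and 35.02 RPKM after knockdown and at 7.20 and 20.1 RPKM in siNT (1.08, FDR 8.42e-08, and 0.78, FDR 2.93e-05) in the authors' deposited table. Rbfox1, which binds GCAUG, had 1.06 RPKM after knockdown and 4.54 RPKM in siNT (-2.17, FDR 3.78e-17), while its paralog Rbfox2 had 79.63 RPKM after knockdown and 54.28 RPKM in siNT (0.50, FDR 0.000993), by the authors' deposited table. The neuronal Elav-like genes Elavl2 and Elavl4 had 80.85 and 79.19 RPKM after knockdown, against 139.98 and 163.95 RPKM in siNT (-0.86 and -1.19), in the authors' deposited table.

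MYC itself did not pass the test, while several of its antagonists were higher. Myc stood at 97.09 RPKM after knockdown and 84.7 RPKM in siNT (log2 fold change 0.26, FDR 0.458) and its partner Max at 68.93 RPKM after knockdown and 61.08 RPKM in siNT (0.21, FDR 0.235) in the authors' deposited table. Mxd4, a MAX partner that represses MYC targets, had 17.73 RPKM after knockdown and 3.44 RPKM in siNT (2.35, FDR 5.71e-77), by the authors' deposited table. Mnt (20.49 RPKM after knockdown and 9.71 RPKM in siNT), Mxd1 (1.94 RPKM after knockdown and 1.13 RPKM in siNT), Mxi1 (16.65 and 11.51 RPKM) and Mga (66.09 and 41.23 RPKM), which also pair with MAX, were called higher in the authors' deposited table, with FDR from 0.000527 to 0.0193. Mycl rose at a low level, 0.64 RPKM after knockdown and 0.26 RPKM in siNT (FDR 0.000188), and Mlxip rose by 0.45 on the log2 scale, while Mycn, the MYC paralog of the neural crest, had 6.38 RPKM after knockdown and 13.11 RPKM in siNT (-0.96, FDR 0.00202), in the authors' deposited table. Mlx, the partner of the glucose-sensing MLX branch, was also lower, at 23.73 RPKM after knockdown and 45.12 RPKM in siNT (-0.92, FDR 9.92e-09), so that 7 of 12 genes of the network were higher and 2 lower in the authors' deposited table, and Mxd3 was not called (-0.29, FDR 0.270). The shares were 58.3% and 16.7%, against 18.2% and 17.2% of genes with at least 1 RPKM.

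Neither relative of Fubp1 passed the test, with Khsrp at 48.23 RPKM after knockdown and 47.03 RPKM in siNT (0.11, FDR 0.863) and Fubp3 at 79.94 RPKM after knockdown and 68.46 RPKM in siNT (0.22, FDR 0.280) in the authors' deposited table. Of the 14 genes of the FUBP family and TFIIH, 4 were lower and none higher in the authors' deposited table. The 4 include Puf60 and Fubp1, the target of the siRNAs. Their share of 28.6% stands beside 17.2% lower among genes with at least 1 RPKM. Of the TFIIH subunits, Ccnh (-0.55, FDR 0.00253) and Gtf2h2 (-0.52, FDR 0.00571) were lower, while Mnat1, Cdk7, Ercc2, Ercc3, Gtf2h1, Gtf2h3, Gtf2h4 and Gtf2h5 were not called, with log2 fold changes from -0.44 to 0.21 in the authors' deposited table.

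Many genes of DNA replication, nucleotide synthesis and chromosome segregation were lower, and no member of these lists was called higher. At replication origins and forks 36 of 47 genes were lower (76.6%, against 10.5% of all genes and 17.2% of those with at least 1 RPKM), with a median log2 fold change of -0.59, in the authors' deposited table. Pcna, the sliding clamp, stood at 202.32 RPKM after knockdown and 355.17 RPKM in siNT (-0.90, FDR 4.14e-10), and Cdc6, which loads the MCM helicase, at 11.18 RPKM after knockdown and 23.55 RPKM in siNT (-1.06, FDR 6.68e-09), by the authors' deposited table. In nucleotide synthesis 15 of 27 were lower (55.6%, median -0.54) in the authors' deposited table. At the kinetochore and spindle checkpoint 27 of 38 were lower (71.1%, median -0.67), led by Cenpi, a centromere protein, with 13.42 RPKM after knockdown and 30.38 RPKM in siNT (-1.24, FDR 6.81e-18), by the authors' deposited table. The condensin gene Ncapg was lower too, at 21.43 RPKM after knockdown and 49.16 RPKM in siNT (-1.29, FDR 3.30e-15) in the authors' deposited table.

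Regulators of the G1 phase gave 1 higher and 6 lower of 25 in the authors' deposited table. These shares of 4.0% and 24.0% stand beside 18.2% and 17.2% of genes with at least 1 RPKM. Those called lower included genes of opposite function, namely the cyclins Ccne2 (63.03 RPKM after knockdown and 116.06 RPKM in siNT) and Ccnd1 (52.94 RPKM after knockdown and 94.41 RPKM in siNT), which drive entry into S phase, and Cdkn1a (9.84 and 22.49 RPKM), the inhibitor p21, in the authors' deposited table. Rbl2, a pocket protein that restrains E2F, was the member called higher, at 11.64 RPKM after knockdown and 7.35 RPKM in siNT (0.67, FDR 0.000586) in the authors' deposited table.

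Most aminoacyl-tRNA synthetases and many genes of serine metabolism were lower. Of 23 cytosolic aminoacyl-tRNA synthetases, which charge tRNAs, 18 were lower and 1, Qars, was higher, with a median log2 fold change of -0.52 in the authors' deposited table. The shares were 78.3% and 4.35%, against 17.2% and 18.2% of genes with at least 1 RPKM. Sars, the synthetase for serine, stood at 257.76 RPKM after knockdown and 419.17 RPKM in siNT (-0.76, FDR 6.89e-08), and Cars, that for cysteine, at 49.63 RPKM after knockdown and 87.18 RPKM in siNT (-0.80, FDR 1.91e-09), by the authors' deposited table. In serine, one-carbon and transsulfuration metabolism 13 of 24 were lower and 2 higher (54.2% and 8.33%) in the authors' deposited table. Cth, which releases cysteine from cystathionine, had 8.85 RPKM after knockdown and 40.72 RPKM in siNT (-2.25, FDR 8.79e-39), in the same pathway as Cbs above, and Psat1, of serine synthesis, 151.83 RPKM after knockdown and 346.52 RPKM in siNT (-1.24, FDR 8.99e-16), by the authors' deposited table. Pycr1, of proline synthesis, went the other way, at 101.86 RPKM after knockdown and 53.43 RPKM in siNT (0.93, FDR 1.35e-08), in the authors' deposited table.

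Among amino acid transporters 3 were higher and 7 lower of 27 (11.1% and 25.9%, against 18.2% and 17.2% of genes with at least 1 RPKM) in the authors' deposited table. Slc7a11, the cystine importer, stood at 2.39 RPKM after knockdown and 7.85 RPKM in siNT (-1.91, FDR 1.50e-18), and Slc43a2, a transporter of neutral amino acids, at 9.08 RPKM after knockdown and 2.99 RPKM in siNT (1.87, FDR 6.63e-34), by the authors' deposited table. In the ATF4 and CHOP branch of the stress response 6 of 20 were lower and 1 higher in the authors' deposited table. Atf4, the transcription factor of that branch, had 149.4 RPKM after knockdown and 331.42 RPKM in siNT (-1.12, FDR 9.15e-07), and Ddit3, which encodes CHOP, 19.17 RPKM after knockdown and 45.6 RPKM in siNT (-1.18, FDR 2.46e-06), in the authors' deposited table. In the double knockdown Ddit3 stood at 74.6 RPKM and Atf4 at 357.09 RPKM in the authors' deposited table.

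Cytoskeletal genes controlled by the transcription factor SRF and its actin-sensing partners MRTF rose in 16 of 37 cases and fell in 2, with a median log2 fold change of 0.45 in the authors' deposited table. The shares were 43.2% and 5.41%, against 18.2% and 17.2% of genes with at least 1 RPKM. Myl9, a myosin regulatory light chain, stood at 42.29 RPKM after knockdown and 4.71 RPKM in siNT (3.28, FDR 4.93e-90), and Acta2, the smooth muscle actin, at 22.93 RPKM after knockdown and 3.89 RPKM in siNT (2.56, FDR 3.87e-40), by the authors' deposited table. At lower levels, Acta1 had 2.18 RPKM after knockdown and 0.15 RPKM in siNT, and the smooth muscle myosin Myh11 0.56 RPKM after knockdown and 0.02 RPKM in siNT, in the authors' deposited table. The actin genes are near-identical in their coding parts, so reads may have been shared among them. Fibroblast markers, whose cells also express contractile genes, summed to 2.65 RPKM after knockdown and 2.09 RPKM in siNT in the authors' deposited table, with Fap and Col3a1 listed at 0 in both groups. In the knockdown of Khsrp alone, Myl9 stood at 54.91 RPKM, and in the double knockdown at 139.12 RPKM, by the authors' deposited table.

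SRF binds the CArG box, and this motif was searched by its letters, on both strands, in RefSeq promoters (250 bases before to 50 after each start, GRCm38.p6). A match was found in 5 of 13 promoters of the members called higher and in 11 of 34 promoters of all members, against 1.63% of 32851 promoters. The 13 promoters belong to 12 of the 16 members called higher. As the list was written for genes controlled by SRF, the difference from all promoters does not bear on the knockdown. The promoters of Myl9 (chr2:156775214-156775513, plus strand) and Acta1 (chr8:123894726-123895025, minus strand) are shown since these genes had the largest log2 fold changes among those with a match, with the CArG box in capitals.
Myl9 promoter: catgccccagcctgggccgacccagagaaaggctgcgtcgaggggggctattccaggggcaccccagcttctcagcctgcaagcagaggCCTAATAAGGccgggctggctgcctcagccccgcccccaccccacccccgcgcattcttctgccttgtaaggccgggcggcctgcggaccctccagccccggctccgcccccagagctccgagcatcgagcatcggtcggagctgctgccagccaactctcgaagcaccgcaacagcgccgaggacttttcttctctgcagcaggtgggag
Acta1 promoter: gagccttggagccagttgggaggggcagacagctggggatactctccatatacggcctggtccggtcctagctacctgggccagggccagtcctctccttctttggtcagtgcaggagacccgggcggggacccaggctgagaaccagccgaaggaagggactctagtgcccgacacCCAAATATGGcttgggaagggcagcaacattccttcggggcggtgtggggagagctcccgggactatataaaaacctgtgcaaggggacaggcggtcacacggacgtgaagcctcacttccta

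In cytosolic RNA and DNA sensing and ISG15 conjugation 15 of 36 were higher and 2 lower (41.7% and 5.56%, median 0.39) in the authors' deposited table. Of all genes tested, 12.0% were higher and 10.5% lower. Uba7, which activates the ubiquitin-like protein ISG15, stood at 4.75 RPKM after knockdown and 0.41 RPKM in siNT (3.82, FDR 6.02e-54), and Rnf213, a large ubiquitin ligase, at 16.39 RPKM after knockdown and 4.86 RPKM in siNT (1.97, FDR 8.65e-24), by the authors' deposited table. Ddx58, which encodes the RNA sensor RIG-I, had 2.71 RPKM after knockdown and 0.67 RPKM in siNT (2.30, FDR 1.22e-25), while Tmem173, which encodes the DNA sensing adaptor STING, fell, with 2.34 RPKM after knockdown and 4.92 RPKM in siNT (-1.08, FDR 2.87e-05), in the authors' deposited table. Usp18, which removes ISG15 and is itself induced by interferon, was lower too, at 0.09 RPKM after knockdown and 0.30 RPKM in siNT (-1.79, FDR 0.00140), by the authors' deposited table.

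In the families of immunity-related GTPases and guanylate-binding proteins, effectors against intracellular pathogens, 6 of 8 were higher and none lower in the authors' deposited table. Irgm1 stood at 8.54 RPKM after knockdown and 2.62 RPKM in siNT (1.66, FDR 7.97e-16), and Igtp at 1.93 RPKM after knockdown and 0.22 RPKM in siNT (3.17, FDR 3.48e-25), by the authors' deposited table. Antigen presentation by MHC class I had 9 of 21 higher and 4 lower (42.9% and 19.0%) in the authors' deposited table. Of genes with at least 1 RPKM, 18.2% were higher and 17.2% lower. Tapbp and Tap1, of the peptide-loading complex, had 26.44 and 4.52 RPKM after knockdown and 9.70 and 1.85 RPKM in siNT (1.49, FDR 4.44e-17, and 1.33, FDR 7.35e-12), in the authors' deposited table. The chaperones Calr and Canx, which serve many secreted proteins, were lower, at 294.65 and 272.2 RPKM after knockdown and 545.36 and 471.88 RPKM in siNT (-0.96 and -0.86), by the authors' deposited table. Leukocyte markers summed to 1.09 RPKM after knockdown and 0.88 RPKM in siNT in the authors' deposited table, with Cd3e at 0 in both groups.

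Interferon-response elements hold repeats of the letters TTTC, and the pattern TTTCNNTTTC was searched on both strands of the same promoters; it can share at most 1 base with a CArG box. It was found in 6 of 7 promoters of the GTPases called higher and in 10 of 11 of all members, in 5 of 13 promoters of the sensing genes called higher and in 10 of 32 of all members, and in 2 of 6 promoters of the antigen presentation genes called higher and in 5 of 20 of all members. Of all 32851 promoters 3.44% held it. The promoters of members called higher belong to 6 of 6 GTPases, 12 of 15 sensing genes and 6 of 9 antigen presentation genes. The promoters of Igtp (chr11:58199306-58199605, plus strand) and Ddx58 (chr4:40239776-40240075, minus strand) are shown with the match in capitals, in Igtp on the opposite strand.
Igtp promoter: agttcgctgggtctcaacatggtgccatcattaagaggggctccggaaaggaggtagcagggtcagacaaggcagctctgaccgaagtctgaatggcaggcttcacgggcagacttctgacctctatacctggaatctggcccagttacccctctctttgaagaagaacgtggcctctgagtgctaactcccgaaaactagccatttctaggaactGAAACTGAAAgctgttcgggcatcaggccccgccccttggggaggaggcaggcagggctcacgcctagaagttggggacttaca
Ddx58 promoter: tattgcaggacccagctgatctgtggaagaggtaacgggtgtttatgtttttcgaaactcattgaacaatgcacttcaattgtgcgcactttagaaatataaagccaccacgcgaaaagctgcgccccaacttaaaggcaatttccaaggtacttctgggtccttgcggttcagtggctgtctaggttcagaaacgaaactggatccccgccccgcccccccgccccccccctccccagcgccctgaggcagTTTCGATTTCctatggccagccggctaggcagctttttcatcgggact

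Members of the apolipoprotein L family were called in both directions, with 6 of 12 higher and 2 lower in the authors' deposited table. Of genes with at least 1 RPKM, 18.2% were higher and 17.2% lower, and of all genes tested 12.0% and 10.5%. The share of the family called higher was above these, while the share called lower, 16.7%, was close to that of genes with at least 1 RPKM. Apart from Apol10b above, the members called higher were at low levels, such as Apol7d at 2.22 RPKM after knockdown and 1.01 RPKM in siNT (1.01, FDR 0.0229), while Apol9b and Apol9a had 0.59 and 0.78 RPKM after knockdown and 6.94 and 4.52 RPKM in siNT (-2.82 and -2.03), in the authors' deposited table. Apol9a and Apol9b are near-identical copies, so their separate values are uncertain.

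Genes of cell death held 9 of 26 higher and 6 lower (34.6% and 23.1%, against 18.2% and 17.2% of genes with at least 1 RPKM) in the authors' deposited table. Bmf, a BH3-only activator of apoptosis, stood at 8.20 RPKM after knockdown and 2.15 RPKM in siNT (2.26, FDR 1.54e-29), and Casp9, the initiator caspase, at 20.47 RPKM after knockdown and 12.61 RPKM in siNT (0.68, FDR 1.62e-05), by the authors' deposited table. Mcl1, which protects from apoptosis, was lower, with 40.55 RPKM after knockdown and 68.03 RPKM in siNT (-0.84, FDR 3.91e-11), by the authors' deposited table.

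Axon guidance genes were higher in 11 of 31 netrin, slit and ephrin genes and lower in none, and higher in 8 and lower in 3 of 29 semaphorin, plexin and neuropilin genes, in the authors' deposited table. The shares called higher were 35.5% and 27.6%, and 10.3% of the semaphorin, plexin and neuropilin genes were lower. Of genes with at least 1 RPKM, 18.2% were higher and 17.2% lower. Unc5c, whose exon is described above, stood at 77.34 RPKM after knockdown and 32.32 RPKM in siNT (1.06, FDR 6.04e-11), and Srgap3 at 22.53 RPKM after knockdown and 11.13 RPKM in siNT (1.00, FDR 2.23e-08), by the authors' deposited table. The transmembrane ligands Sema6a and Sema6d had 13.9 and 20.14 RPKM after knockdown and 6.07 and 8.14 RPKM in siNT (1.29 and 1.30), and their receptor Plxna4 28.96 RPKM after knockdown and 14.71 RPKM in siNT (0.99, FDR 2.57e-09), in the authors' deposited table.

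Identity genes of neuroblastoma were called in either direction, 3 higher and 6 lower of 20, in the authors' deposited table. Of genes with at least 1 RPKM, 18.2% were higher and 17.2% lower. The share of identity genes called higher was below that of these genes, and the share called lower was above it. Dbh, which makes noradrenaline, stood at 5.91 RPKM after knockdown and 18.8 RPKM in siNT (-1.53, FDR 3.86e-13), and the receptor gene Ret at 106.84 RPKM after knockdown and 187 RPKM in siNT (-0.78, FDR 0.000104), by the authors' deposited table. Gata3, a transcription factor of the sympathetic lineage, was higher, at 16.46 RPKM after knockdown and 7.95 RPKM in siNT (1.13, FDR 3.16e-05), in the authors' deposited table.

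**Figure D5:**
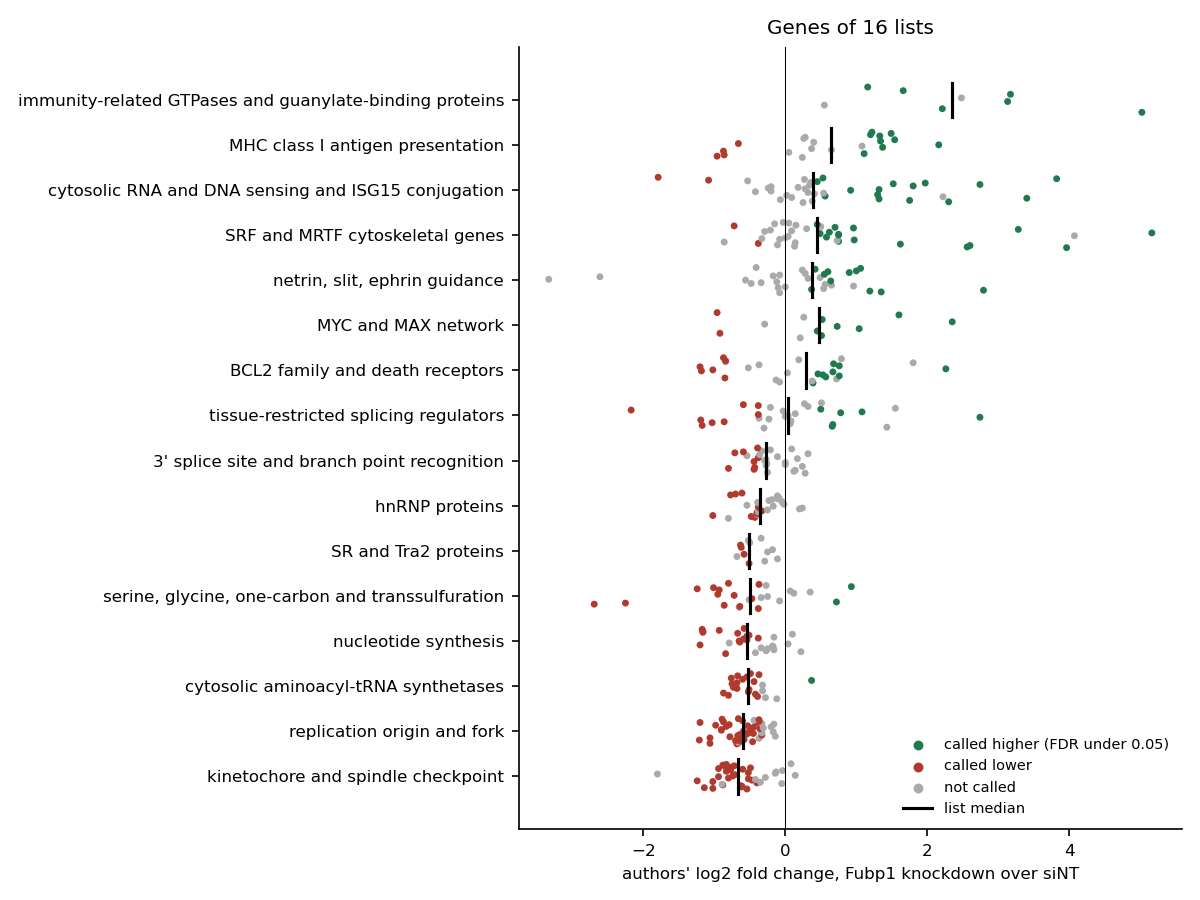
The authors' log2 fold change (x axis, Fubp1 knockdown over siNT) of each tested gene in 16 lists (rows), coloured by the authors' call at an FDR under 0.05, with a black bar at each list's median. The medians range from 2.35 for the immunity-related GTPases and guanylate-binding proteins to -0.67 for the kinetochore and spindle checkpoint list.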

How the data were processed

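Stranded libraries of polyadenylated mRNA with longer inserts were sequenced, per the labels' protocols. The submitters' processing notes list the build mm10 and the tools Salmon 0.14.1 and edgeR, the last with no version. The authors deposited an event table in vast-tools layout with 401633 entries for 358106 events, holding per library PSI as a percent and a text with corrected inclusion and exclusion reads. Another deposited table holds, for each event, group PSI values (a score) and the authors' call. Their expression table, as deposited, holds RPKM per group, log2 fold changes, p-values and FDR. The sources used here do not say how replicates were combined. The FDR differed from a Benjamini-Hochberg adjustment of the authors' p-values by up to 0.000172.

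Deposited PSI and PSI recomputed from reads were within 0.05 points. The 37194 entries for first splice sites were left out. Events with at least 10 reads in each of the 11 libraries and a mean PSI of 1 to 99 were tested. Inclusion over exclusion reads (0.5 added to each, log2 scale) was fitted in limma 3.58.1 (R 4.3.3) with 1 mean per group over 11 libraries (6 residual degrees of freedom), binomial precision weights at the group's pooled PSI, and empirical Bayes moderation with a trend on the weight. A call needed a Benjamini-Hochberg adjusted p under 0.05 and a difference of mean PSI of 10 points or more. The fit was also run on simulated reads with known changes, and the outcome is not reported here. Without molecular identifiers, read numbers reflect counting error only. Differences between libraries of 1 group exceeded counting error in 13 to 20.1% of events, so no library was a copy of another.

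The sources used here do not name the build of the event table's coordinates. GRCm38 coordinates come from a match to GENCODE vM21 by gene, exon length and flanking introns. No genome sequence was used.

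The comparison, the 35 gene lists and the naming rules were chosen with earlier results of these data known. Named genes were the 10 largest log2 fold changes in each direction (FDR under 0.05, at least 5 RPKM in 1 group, no predicted genes) and up to 4 called list members per direction with the lowest FDR. Named events were the called ones with at least 20 reads in each of the 5 libraries and the largest differences per class, all tested Fubp1 events, and called events in splicing factor genes. Some items that this rule picked are not reported here. No fit across libraries was possible for expression.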

Additional observations from a re-analysis of the deposited data

How the results depend on the processing

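The full comparison called 345 events lower and 110 higher. Lower and higher counts were 23 and 11 without weights, 177 and 47 with the 5 libraries alone, 159 and 40 with a term for library sets, 220 and 73 at 15 points, 641 and 164 with no minimum difference, and 1850 and 632 by the authors' own calls, which hold 336 and 99 of the 345 and 110. The authors' calls were counted among events tested here and given a direction by the PSI difference found here. Leaving out 1 library gave 130 to 263 lower and 41 to 82 higher events, lowest without Fubp1 knockdown library 2 in both directions, and 2 knockdown libraries limit the power of each such fit. A trend on mean log odds, 1 read added in place of 0.5, other read minimums, no filter on PSI and siNT libraries 1 and 2 alone kept both counts within 1.5 times. The replicate letters, for which the titles of both knockdown libraries give A and the descriptions A and B, do not pair libraries across groups (correlation of A minus B deviations 0.036 between the knockdown and siNT), and with a replicate block 284 events were lower and 83 higher, 249 and 75 of them shared. With this block 28 of the 39 called events that the naming rule picked kept an adjusted p under 0.05. The uncalled 63 nt exon of Fubp1 (-0.07 points) reversed to 0.04 points without siNT library 1 and 0.68 points without knockdown library 2, in a range of -0.81 to 0.68 points over the 5 omissions. By the authors' deposited table, at a log2 fold change of at least 1, the genes called were 1056 (higher) and 691 (lower), and an FDR under 0.01 or a minimum of 1 RPKM kept both counts within 1.5 times. Where a call was lost the cause was not tested, beyond the fewer libraries or points that each setting uses.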

Other observations

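Further gene groups were counted and are given as values, beside 18.2% higher and 17.2% lower among genes with at least 1 RPKM and 12.0% and 10.5% among all genes tested, by the authors' deposited table. In the Notch pathway, which relays signals between touching cells, 6 of 25 genes were higher and 5 lower (24.0% higher) after Fubp1 knockdown in the authors' deposited table. Maml1, a coactivator of Notch, stood at 15.37 RPKM after knockdown and 5.54 RPKM in siNT (log2 fold change 1.52, FDR 8.70e-17), and the target gene Hey2 at 0.52 RPKM after knockdown and 2.59 RPKM in siNT (-2.29, FDR 1.99e-11), in the authors' deposited table. In the IGF axis 4 of 17 were higher and 4 lower (23.5% each), with the receptor gene Igf1r at 14.56 RPKM after knockdown and 7.25 RPKM in siNT (1.04, FDR 1.10e-06), by the authors' deposited table.

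Nonsense-mediated decay factors gave 3 higher and 4 lower of 18 (16.7% and 22.2%), among them the nuclease gene Smg6 at 15.72 RPKM after knockdown and 9.16 RPKM in siNT (0.86, FDR 4.99e-07), in the authors' deposited table. Cytosolic heat shock chaperones gave 1 higher and 5 lower of 21 (4.76% and 23.8%), and cohesin, condensin and related proteins 2 higher and 8 lower of 23 (8.70% and 34.8%), where the cohesin loader Nipbl stood at 51.19 RPKM after knockdown and 30.61 RPKM in siNT (0.72, FDR 0.000141), in the authors' deposited table. In other marker lists, 1 of 7 fibroblast, 1 of 4 glia and 0 of 5 leukocyte markers were higher, and 1 of 5 endothelial and 0 of 2 epithelial markers were lower, in the authors' deposited table.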
